A study of Mus musculus with 27 samples.

Results

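Gpnmb and 9 genes that are used with it to recognise lipid-associated macrophages were followed in whole lungs of mice exposed to house dust mite allergen, to combustion products, or to both. The members were chosen by name, with earlier results of these data known. They were Gpnmb, Spp1, Trem2, Cd9, Fabp4, Fabp5, Lgals3, Cd36, Plin2 and Apoe, 10 of the 56941 genes in the deposited tables. Each name matched 1 row, and all 10 were among the 24629 genes that passed the filter on low counts. The 27 libraries were made from entire lungs of male wild-type C57Bl/6 mice aged 7 to 8 weeks. Each mouse first received 5 oropharyngeal instillations of 50 µl, 2 to 3 days apart, holding either 10 µg of house dust mite (HDM) or buffer alone (PBS). A day later (24 h) 100 µl of saline (SAL) or of combustion products (CP) of burn pit constituents at 2 mg per ml was instilled, and the lungs were removed after another 24 h. The groups were PBS_SAL (n = 7, both controls), PBS_CP (n = 7), HDM_SAL (n = 6) and HDM_CP (n = 7). Libraries are named here by group and by the number in their label.

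Macrophages that take up large amounts of lipid, from dying cells, surfactant or lipoproteins, turn on a recognisable programme in adipose tissue, atherosclerotic plaques and scarred lung. TREM2 is a surface receptor for lipids and lipoproteins that signals through the adaptor TYROBP, GPNMB is a membrane glycoprotein linked to lysosomes under stress, and SPP1 (osteopontin) is a secreted matrix protein. CD36 takes up fatty acids and oxidised lipoproteins, FABP4 and FABP5 carry fatty acids inside the cell, and PLIN2 coats lipid droplets. APOE carries cholesterol in lipoproteins, LGALS3 binds damaged membranes and CD9 is a tetraspanin of the cell surface. Several of these genes are not restricted to macrophages, since capillary endothelium also uses Cd36 and Fabp4, and Cd9 and Apoe are made by many lung cells.

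The promoters of Gpnmb, Spp1 and Trem2 are shown because these members had the 3 largest interaction values (the response to CP in HDM lungs minus that in PBS lungs), none of which passed the test, and so that their motifs can be read beside their levels. Each sequence runs from 250 bases before to 50 bases after the annotated start (300 bases), is taken from RefSeq on the GRCm38.p6 build, and is written 5′ to 3′ on the + strand, which is the strand of all 3 genes. On GRCm39, the build of the deposited tables, the genes lie on chromosome 6 at 49013480 to 49047863 (Gpnmb), chromosome 5 at 104582984 to 104588916 (Spp1) and chromosome 17 at 48653429 to 48661175 (Trem2). On GRCm38.p6 the Gpnmb window is chr6:49036268-49036567, the printed Spp1 window is chr5:104434861-104435160 and the Trem2 window is chr17:48346151-48346450. Capitals mark the matches to the AP-1 pattern searched in Gpnmb and Trem2, and to the PU.1 letters in Spp1.
Gpnmb: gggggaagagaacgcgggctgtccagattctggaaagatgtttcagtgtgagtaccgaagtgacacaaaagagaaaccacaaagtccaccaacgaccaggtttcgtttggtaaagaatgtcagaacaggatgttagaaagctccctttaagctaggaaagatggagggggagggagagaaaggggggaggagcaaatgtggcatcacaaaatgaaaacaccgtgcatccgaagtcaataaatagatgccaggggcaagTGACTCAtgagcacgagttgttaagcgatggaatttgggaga
Spp1: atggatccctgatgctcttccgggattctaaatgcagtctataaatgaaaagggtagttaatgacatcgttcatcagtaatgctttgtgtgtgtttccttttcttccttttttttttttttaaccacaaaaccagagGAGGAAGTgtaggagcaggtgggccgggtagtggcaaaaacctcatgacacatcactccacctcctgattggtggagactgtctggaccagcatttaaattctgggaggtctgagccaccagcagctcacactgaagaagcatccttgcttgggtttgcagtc
Trem2: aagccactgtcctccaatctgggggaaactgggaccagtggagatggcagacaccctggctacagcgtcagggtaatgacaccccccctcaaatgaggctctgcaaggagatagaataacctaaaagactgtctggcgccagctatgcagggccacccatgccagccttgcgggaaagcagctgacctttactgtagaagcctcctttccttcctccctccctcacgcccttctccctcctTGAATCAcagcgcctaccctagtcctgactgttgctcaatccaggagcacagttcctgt
Of the 10 members, 8 had at least 1 promoter in the RefSeq table, with 11 windows in all, and Fabp4 and Fabp5 had none there. On both strands, 4 motifs were searched. TGANTCA (the AP-1 pattern, with any base at N) was in 2 of the 11 windows, against 7.81% of all 32851 promoters. These were Gpnmb, with TGACTCA, and Trem2, with TGAATCA. GAGGAAGT (PU.1) was in 1, the printed window of Spp1, against 3.20%. Another Spp1 window, chr5:104435942-104436241, is not printed and held none of the 4 motifs. CACGTG (the E-box core) was in 1, that of Plin2, against 7.15%, and CATGTG (an E-box form read by MITF) was in 1, that of Cd9, against 14.2%. The printed Gpnmb window thus held none of the E-box letters searched, and a match or its absence describes only these letters in this window.

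Library totals of the deposited estimated counts ran from 56.3 M to 84.5 M, and the smallest estimate for a member in any library was 183, for Trem2. Levels are given as CPM (counts scaled to the size of the library), or as TPM (also scaled to transcript length) where genes are compared with each other, and changes as log2 fold changes with their standard error (SE). A member is said to have risen or fallen only where the p-value of edgeR's quasi-likelihood test, adjusted by Benjamini-Hochberg over all genes tested, was under 0.05. Across all genes that test called 1339 in HDM_SAL against PBS_SAL, 2 in PBS_CP against PBS_SAL, 1 in HDM_CP against HDM_SAL, 1938 in HDM_CP against PBS_CP and 0 for the interaction. The median log2 fold change of all genes lay between -0.00145 and 0.0133 in these comparisons. The comparisons share groups with each other, so their results are not independent. The labels number the libraries without saying that each is a separate mouse, so p-values measure the spread between these libraries.

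Macrophage markers were read beside the list, which does not show which cells made the RNA of the members. All 12 alveolar macrophage markers and all 13 markers of recruited monocytes and macrophages had a median above 1 TPM in each group, so RNA of both marker lists was detected. In the PBS_SAL lungs Cd36 had the highest level of the 10 members (median 859 TPM), followed by Apoe (710 TPM) and Cd9 (572 TPM). Fabp5, Spp1, Lgals3 and Plin2 lay between 121 and 133 TPM, and the least abundant were Gpnmb (13.4 TPM), Fabp4 (8.97 TPM) and Trem2 (6.49 TPM). In HDM_CP lungs Apoe (871 TPM) stood above Cd36 (804 TPM), and Trem2 (13.7 TPM) was still the least abundant member. The 3 most abundant members, Cd36, Apoe and Cd9, are also made by other lung cells, and which cells gave the RNA was not tested.

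The members differed in how they varied over the groups. Trem2, Fabp4, Fabp5 and Lgals3 were higher in HDM_CP than in PBS_CP lungs. Gpnmb and Spp1 were at their lowest in HDM_SAL lungs and, for Gpnmb, at their highest in HDM_CP lungs. Plin2 and Apoe had log2 differences of 0.27 and 0.29 between HDM_CP and PBS_CP that did not pass the test. Cd9 and Cd36 had the smallest differences of HDM_CP from PBS_CP and from HDM_SAL. None of their differences in any comparison passed the test.

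**Figure D1:**
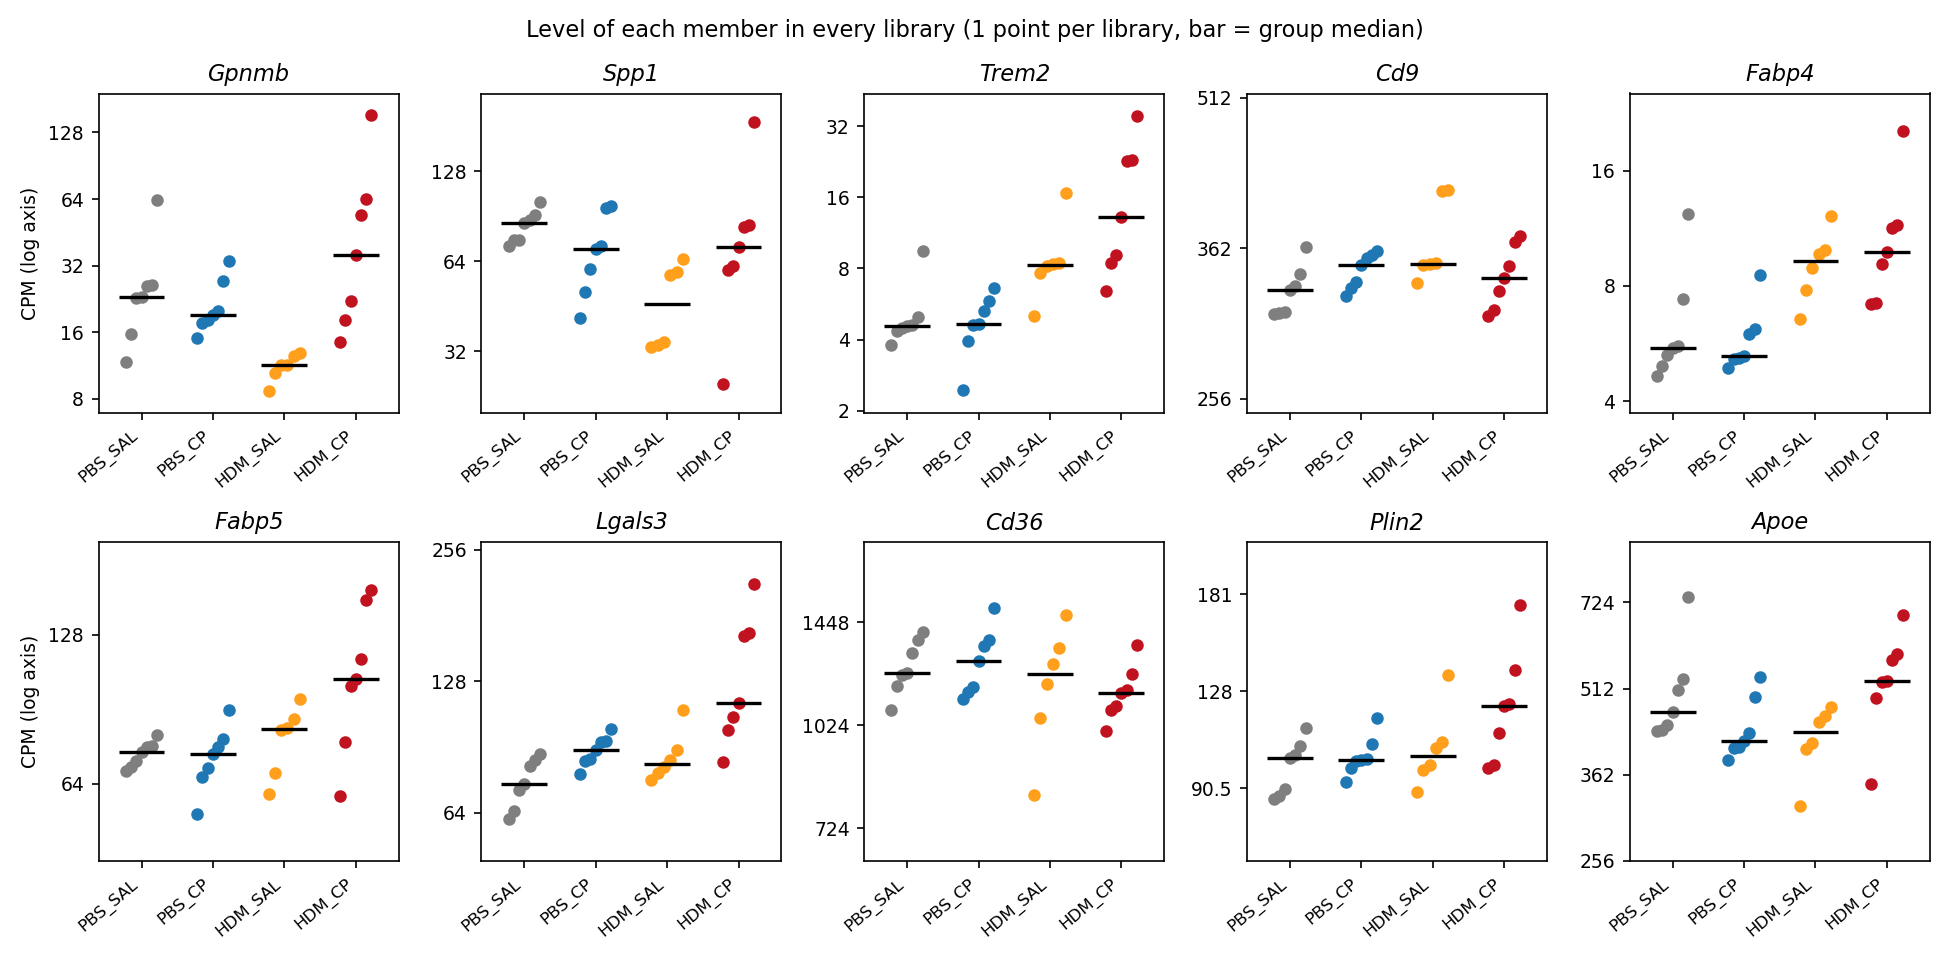
Level of each of the 10 members in every library, in CPM on a log axis with a scale of its own in each panel, by group. Points are libraries and bars are group medians; all 7 HDM_CP points of Gpnmb lie above all 6 HDM_SAL points, and HDM_CP 98 is the highest HDM_CP point in 8 of the 10 panels.

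Trem2, the lipid receptor, had higher medians in both HDM groups than in both PBS groups. Its level ran from 3.79 through a median of 4.59 to 9.46 CPM in PBS_SAL, from 2.45 through 4.65 to 6.60 CPM in PBS_CP, from 5.06 through 8.28 to 16.6 CPM in HDM_SAL and from 6.43 through 13.2 to 35.1 CPM in HDM_CP. HDM_CP 98, 49 and 67 were the highest libraries at 35.1, 22.9 and 22.9 CPM, and 6 of the 7 HDM_CP libraries lay above every PBS_CP library. Trem2 rose by 1.82 ± 0.33 (log2, SE) in HDM_CP against PBS_CP, a 3.54-fold difference (adjusted p = 0.000884). Its log2 change was 0.81 ± 0.33 in HDM_SAL against PBS_SAL (adjusted p = 0.164) and 0.90 ± 0.33 in HDM_CP against HDM_SAL (adjusted p = 0.347), and in both pairs the groups overlapped. Without HDM_CP 98 and PBS_SAL 105, the libraries with the highest Gpnmb among 7 each, Trem2 passed the test in HDM_SAL against PBS_SAL as well (log2 change 1.01, adjusted p = 0.0348).

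Gpnmb, the lysosome-linked glycoprotein, had another order of groups, with the lowest median in HDM_SAL. HDM_SAL lungs held the least, from 8.63 through a median of 11.4 to 12.9 CPM, and varied little among themselves. The share of counts from mitochondrial genes, a sign of RNA or tissue quality, was 2.32 to 3.86% in HDM_SAL and 2.08 to 2.78% in the other groups. HDM_SAL 54, lowest of its group in Gpnmb, Cd36 and Apoe, had the 3.86% and the lowest capillary endothelium sum (2096 TPM), and the part of this in the member results was not tested. PBS_CP lungs held 15.0 to 33.7 CPM (median 19.1) and PBS_SAL lungs 11.8 to 63.6 CPM (median 23.1), where PBS_SAL 105 alone exceeded 26.3 CPM. The 7 HDM_CP libraries differed 10.6-fold between the lowest and the highest. The levels were 14.4 CPM in HDM_CP 45, 18.1 in HDM_CP 66, 22.2 in HDM_CP 96, 35.6 in HDM_CP 97, 54.0 in HDM_CP 67, 63.9 in HDM_CP 49 and 154 in HDM_CP 98. Every HDM_CP and every PBS_CP library thus stood above every HDM_SAL library, while the PBS_SAL range overlapped all 3 other groups.

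The Gpnmb difference of HDM_CP from HDM_SAL was 2.21 ± 0.46 (log2, SE), or 4.62-fold, the 17th smallest p of all genes tested (unadjusted p = 6.89e-05), and its adjusted p of 0.0999 missed the threshold. Complete separation of the groups in this comparison was found for 1 of 10 members, Gpnmb, and for 0.158% of all genes. The difference was 1.63 without HDM_CP 98 and PBS_SAL 105, with an adjusted p of 0.123. Leaving out HDM_CP 45, HDM_CP 66 or HDM_CP 96, the lowest of the group, brought the adjusted p to 0.0170, 0.0465 and 0.0392, and DESeq2 gave 0.000385, so this call changed with the library left out and with the tool. In HDM_SAL against PBS_SAL the Gpnmb log2 change was -1.27 ± 0.45 (adjusted p = 0.0997), which passed in DESeq2 (0.0362), with only the groups compared (0.0351) and without HDM_CP 98 (0.0336). In HDM_CP against PBS_CP it was 1.26 ± 0.42 (adjusted p = 0.0670), and 0.69 without HDM_CP 98 and PBS_SAL 105 (adjusted p = 0.196). That call was made by DESeq2 (0.0231), with a minimum count of 50 (0.0496) and without PBS_SAL 105 (0.0429), HDM_CP 45 (0.0256), HDM_CP 66 (0.0296) or HDM_CP 96 (0.0423).

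Spp1, the secreted partner of this programme, shared the low level in HDM_SAL lungs. It ranged from 72.0 through a median of 85.6 to 101 CPM in PBS_SAL and from 33.1 through 46.0 to 65.2 CPM in HDM_SAL, so these groups did not overlap. PBS_CP lungs held 41.4 to 98.2 CPM (median 70.2) and HDM_CP lungs 24.9 to 186 CPM (median 71.5), with HDM_CP 45 lowest and HDM_CP 98 highest of all 27 libraries. The log2 change was -0.84 ± 0.30 in HDM_SAL against PBS_SAL (adjusted p = 0.106), and Spp1 was the 1 member of 10 whose groups did not overlap there, as did those of 1.97% of all genes. That change passed the test with only the groups compared (adjusted p = 0.0139), in limma voom with quality weights (0.0373), without HDM_CP 45 (0.0481), without HDM_CP 98 (0.0381) and without HDM_CP 98 and PBS_SAL 105 (0.04999). From HDM_SAL to HDM_CP it was 0.79 ± 0.30 (adjusted p = 0.354), which went to 0.45 without HDM_CP 98 and PBS_SAL 105. In HDM_CP against PBS_CP it was 0.23 ± 0.28 (adjusted p = 0.742), and -0.12 without those libraries.

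The fatty acid carriers Fabp4 and Fabp5 both lie on chromosome 3 (Fabp4 at 10269148 to 10273636 on the - strand, Fabp5 at 10077608 to 10081667 on the + strand of GRCm39). Fabp4 held 4.88 through 5.26 to 8.54 CPM in PBS_CP and 7.19 through 9.83 to 20.3 CPM in HDM_CP, and 5 of 7 HDM_CP libraries exceeded every PBS_CP library. Fabp5 held 55.7 through 73.4 to 90.3 CPM in PBS_CP and 60.5 through 104 to 158 CPM in HDM_CP, again with 5 of 7 above. Both rose in HDM_CP against PBS_CP, Fabp4 by 0.89 ± 0.22 (log2, adjusted p = 0.0102) and Fabp5 by 0.59 ± 0.15 (adjusted p = 0.0135). The Fabp5 call was lost without HDM_CP 98 and PBS_SAL 105 (adjusted p = 0.0535), with only the groups compared (0.0704) and on log2(TPM + 1) with no filter (0.0961).

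Between saline lungs the carriers gave these values. Fabp4 was already at 6.55 through 9.28 to 12.1 CPM in HDM_SAL lungs, against 4.66 through 5.52 to 12.3 CPM in PBS_SAL lungs, where only PBS_SAL 105 exceeded 7.40 CPM. Its log2 change between those groups was 0.49 ± 0.23 (adjusted p = 0.216), and 0.71 without PBS_SAL 105 (adjusted p = 0.0311). Fabp5 was at 61.2 through 82.5 to 95.1 CPM in HDM_SAL lungs and 68.0 through 74.1 to 80.2 CPM in PBS_SAL lungs, a log2 change of 0.11 ± 0.16 (adjusted p = 0.767). From HDM_SAL to HDM_CP the log2 changes were 0.26 ± 0.23 for Fabp4 (adjusted p = 0.782) and 0.47 ± 0.16 for Fabp5 (adjusted p = 0.279).

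Whether the balance of the carriers shifted was asked of the log2 ratio of Fabp5 to Fabp4 in TPM, which does not depend on library scaling. It was 3.59 ± 0.54 (SD, n = 7) in PBS_SAL, 3.72 ± 0.31 (SD, n = 7) in PBS_CP, 3.12 ± 0.42 (SD, n = 6) in HDM_SAL and 3.45 ± 0.46 (SD, n = 7) in HDM_CP. None of the 4 differences passed a two-sided exact permutation test: HDM_SAL minus PBS_SAL was -0.47 (p = 0.112, adjusted over the 4 p = 0.288), PBS_CP minus PBS_SAL 0.13 (0.636, 0.636), HDM_CP minus HDM_SAL 0.33 (0.202, 0.288) and HDM_CP minus PBS_CP -0.27 (0.216, 0.288). Without PBS_SAL 105, the ratio was lower in HDM_SAL than in PBS_SAL by an exact permutation test (adjusted p = 0.0433).

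Lgals3, the lectin of damaged membranes, held 61.8 through 74.4 to 87.1 CPM in PBS_SAL, 78.5 through 88.8 to 99.2 CPM in PBS_CP, 76.0 through 82.9 to 110 CPM in HDM_SAL and 83.8 through 114 to 213.5 CPM in HDM_CP. HDM_CP 98, 67 and 49 were again highest, at 213.5, 165 and 163 CPM, and 5 of 7 HDM_CP libraries lay above every PBS_CP library. Lgals3 rose in HDM_CP against PBS_CP by 0.60 ± 0.15 (log2, adjusted p = 0.0103). That call was lost with only the groups compared (adjusted p = 0.0527) and on log2(TPM + 1) with no filter (0.0772). From HDM_SAL to HDM_CP the log2 change was 0.64 ± 0.15 (adjusted p = 0.145), and it passed in DESeq2 (0.00908), without HDM_CP 45 (0.0362) and without HDM_CP 66 (0.0465).

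Plin2, the droplet coat, and Apoe, the cholesterol carrier of lipoproteins, differed by less. Plin2 was at 87.2 through 101 to 112 CPM in PBS_SAL, 92.6 through 100.2 to 117 CPM in PBS_CP, 89.3 through 101.5 to 136 CPM in HDM_SAL and 97.5 through 121 to 174 CPM in HDM_CP, and the groups overlapped throughout. Its log2 change was 0.27 ± 0.10 in HDM_CP against PBS_CP (adjusted p = 0.1004), which passed without HDM_CP 45 (adjusted p = 0.0430) or HDM_CP 66 (0.0372), and 0.23 ± 0.11 in HDM_CP against HDM_SAL (adjusted p = 0.478). Apoe was at 431.5 through 466 to 739 CPM in PBS_SAL, 384 through 414 to 537 CPM in PBS_CP, 319 through 429 to 476 CPM in HDM_SAL and 349 through 528.5 to 687 CPM in HDM_CP. In 6 of 7 HDM_CP libraries Apoe exceeded every HDM_SAL library, with HDM_CP 96 the exception at 349 CPM. Its log2 change there was 0.35 ± 0.13 (adjusted p = 0.335). Against PBS_SAL the Apoe changes were -0.28 ± 0.13 in HDM_SAL (adjusted p = 0.226) and -0.21 ± 0.12 in PBS_CP (adjusted p = 0.994), and without PBS_SAL 105, the highest library, they were -0.17 and -0.10. In HDM_CP against PBS_CP it was 0.29 ± 0.12 (adjusted p = 0.168), which passed without HDM_CP 96 (0.0392).

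Cd36, the fatty acid receptor, and Cd9, the tetraspanin, were nearly level. Cd36 medians lay between 1143 CPM in HDM_CP and 1273 CPM in PBS_CP, and its log2 changes lay between -0.15 ± 0.10 in HDM_CP against PBS_CP (adjusted p = 0.402) and 0.03 ± 0.10 in PBS_CP against PBS_SAL (adjusted p = 1.00). Cd9 medians lay between 329 CPM in PBS_SAL and 350 CPM in HDM_SAL. Cd9 was measured most precisely of the 10, and its log2 change of 0.16 ± 0.06 in HDM_SAL against PBS_SAL missed the threshold (adjusted p = 0.0863), with -0.12 ± 0.06 in HDM_CP against HDM_SAL (adjusted p = 0.512). DESeq2 called the Cd9 difference of HDM_SAL from PBS_SAL (adjusted p = 0.0462), as did the fit without HDM_SAL 52 (0.0475).

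**Figure D2:**
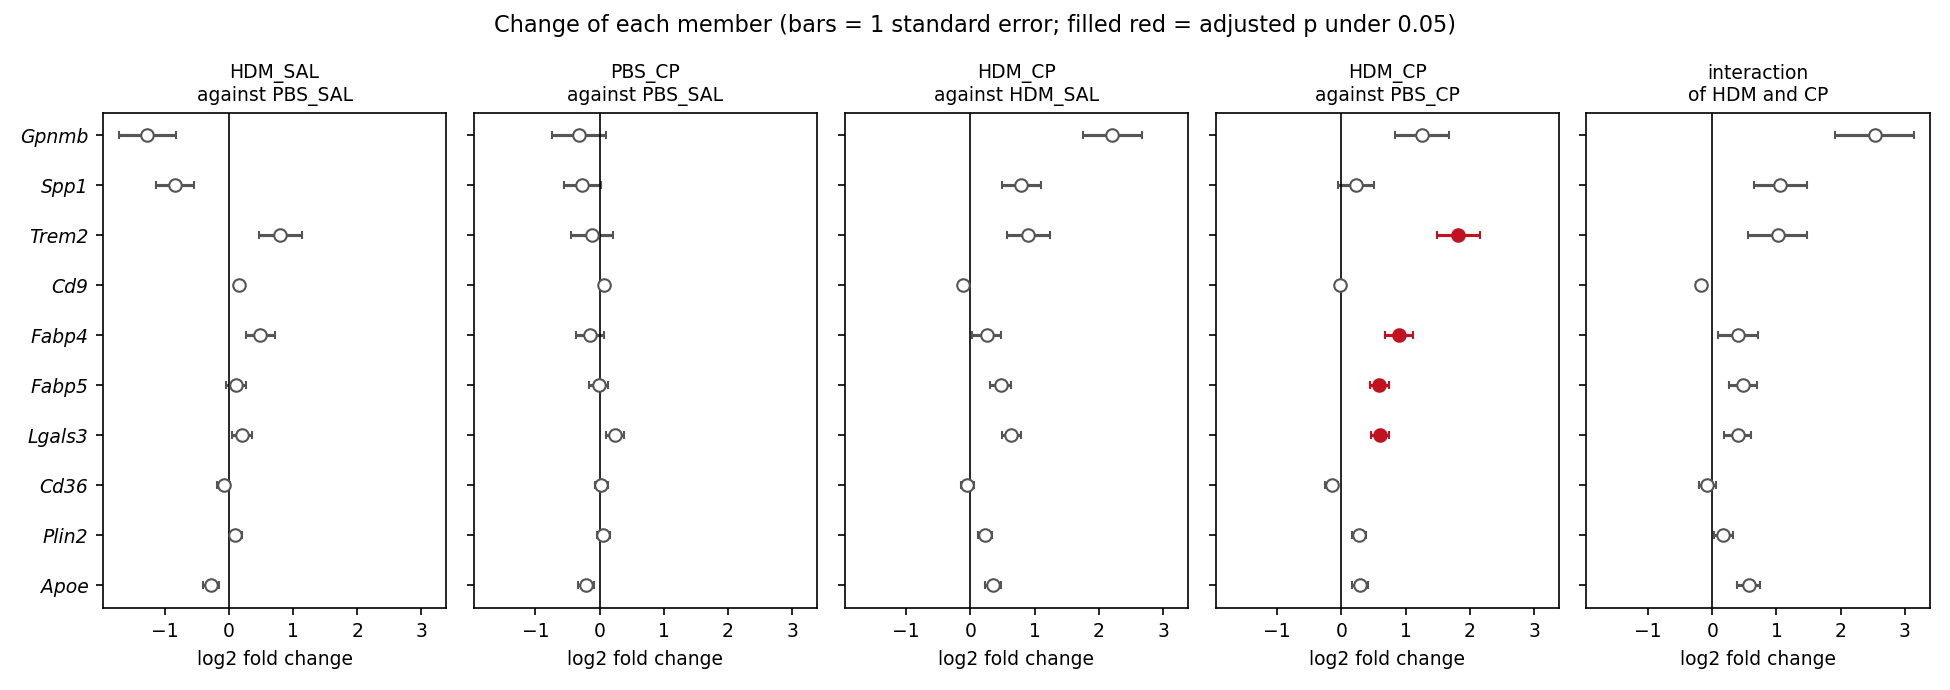
Log2 fold change of each of the 10 members in the 4 comparisons of groups and for the interaction, with 1 standard error as the bar; filled red points passed the adjusted threshold. Red points appear only in HDM_CP against PBS_CP, for Trem2, Fabp4, Fabp5 and Lgals3, and the Gpnmb point reaches 2.21 in HDM_CP against HDM_SAL with an open symbol.

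Counted over the list, the allergen comparison among CP lungs (HDM_CP against PBS_CP) had 4 of 10 members higher and 0 lower, where 7.87% of all genes were called, 5.6% higher and 2.27% lower. The member median log2 change was 0.44. At an unadjusted p under 0.05, 7 of 10 members passed, against 20.7% of all genes, and no member had groups that did not overlap, against 1.72% of all genes. Without HDM_CP 98 and PBS_SAL 105, 3 of 10 members were called, and 5.09% of all genes. DESeq2 called 5 members, Gpnmb and the same 4, among 2514 of 21765 genes. The members were chosen with earlier results of these data known, and many vary together. Their counts here and in the comparisons below are a description, not a test of the list against all genes.

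The allergen comparison among saline lungs (HDM_SAL against PBS_SAL) had 0 of 10 members called by edgeR, where 5.44% of all genes were called. DESeq2 called 2 (Gpnmb and Cd9), among 1990 of 20976 genes, and limma voom 1 (Spp1), among 1760 of 24629 genes. At an unadjusted p under 0.05, 6 of 10 members passed in edgeR, against 20% of all genes: Trem2, Cd9 and Fabp4 with higher levels and Gpnmb, Spp1 and Apoe with lower ones. The member median was 0.11. Without HDM_CP 98 and PBS_SAL 105 the count was 3, with Trem2 and Fabp4 higher and Spp1 lower, and 7.17% of all genes were called.

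Combustion products after PBS (PBS_CP against PBS_SAL) moved none of the members past a threshold: 0 of 10 were called by edgeR, DESeq2 or limma voom, where 0.00812% of all genes were called by edgeR. At an unadjusted p under 0.05, 0 of 10 members passed, against 5.45% of all genes, and 0 of 10 had groups that did not overlap, against 0.199% of all genes. The member median was -0.07, and the largest difference was -0.32 ± 0.42 for Gpnmb (adjusted p = 1.00), which was 0.04 without HDM_CP 98 and PBS_SAL 105. Apoe and Lgals3 had the smallest p of the 10, with -0.21 ± 0.12 (adjusted p = 0.994) and 0.24 ± 0.15 (adjusted p = 0.996).

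Combustion products after HDM (HDM_CP against HDM_SAL) had 0 of 10 members called by edgeR, where 0.00406% of all genes were called, and 0 by limma voom. DESeq2 called 2, Gpnmb and Lgals3, among 185 genes called in all. At an unadjusted p under 0.05, 8 of 10 members passed, against 9.7% of all genes, 7 with higher levels in HDM_CP and Cd9 with a lower one. The member median was 0.41, and 0.32 without HDM_CP 98 and PBS_SAL 105.

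The test of the difference between those responses to combustion products, the interaction, called 0 of 10 members in edgeR, DESeq2 or limma voom, and edgeR called 0% of all genes. At an unadjusted p under 0.05, 6 of 10 members passed, against 6.38% of all genes. Gpnmb had the 11th smallest p of all genes, with an interaction of 2.53 ± 0.61 (log2, unadjusted p = 0.000384, adjusted p = 0.694). Apoe followed with 0.57 ± 0.18 (adjusted p = 0.742), and Spp1 and Trem2 had 1.06 ± 0.41 (adjusted p = 0.769) and 1.02 ± 0.46 (adjusted p = 0.776). The response of these members to combustion products was therefore not shown to differ between HDM and PBS lungs.

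The spread within HDM_CP had a shape that most members shared. Measured from the mean of their own group, HDM_CP 49, HDM_CP 67 and HDM_CP 98 were above it for 8 of 10 members, and HDM_CP 45 and HDM_CP 66 for 1. HDM_CP 98 was the highest library of its group for Gpnmb, Spp1, Trem2, Fabp4, Fabp5, Lgals3, Plin2 and Apoe. In PBS_SAL, library 105 was the highest for Gpnmb, Trem2, Fabp4 and Apoe, and library 80 was the lowest for 6 members.

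**Figure D3:**
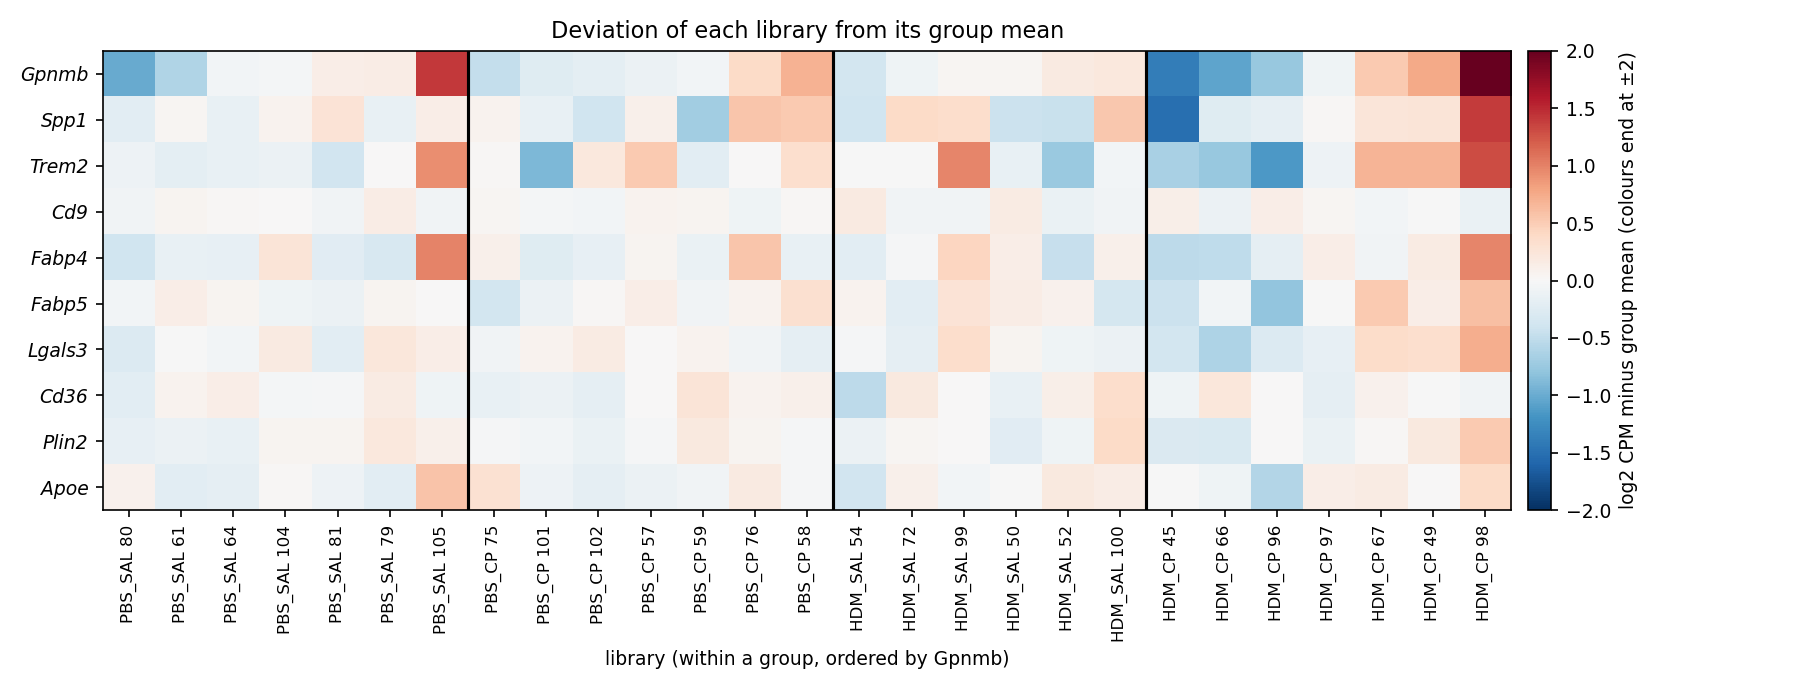
Deviation of every library from the mean of its group in log2 CPM, red above and blue below, for the 10 members; libraries of a group are ordered by their Gpnmb level. The right-hand block, HDM_CP, runs from blue to red for Gpnmb, Spp1, Trem2, Fabp4 and Lgals3, while the Cd9 row stays pale in all blocks and the Cd36 row in all but HDM_SAL 54.

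How closely the members varied with Gpnmb was asked of these deviations over all 27 libraries, by permutation within groups and with adjustment over the 9 other members. Pearson's r was 0.76 for Fabp4 (Spearman's rho 0.58), 0.73 for Plin2 (0.66), 0.73 for Lgals3 (0.53), 0.72 for Trem2 (0.57), 0.72 for Spp1 (0.61), 0.61 for Fabp5 (0.56) and 0.55 for Apoe (0.48). All 7 had an adjusted permutation p under 0.05, from 0.00081 for Spp1 to 0.0183 for Apoe. Cd9 went the other way with an r of -0.37 (rho -0.38, adjusted p = 0.0822), and Cd36 had 0.10 (rho 0.24, adjusted p = 0.533). Without the 2 libraries farthest from the median, HDM_CP 98 and PBS_SAL 105, Pearson's r was between 0.53 for Fabp4 and 0.64 for Spp1 in 6 of the 7. Each of these still had an adjusted permutation p under 0.05. For Apoe r was 0.27 (adjusted p = 0.341), so the Apoe relation rested on those libraries. Without HDM_CP 98 alone, Fabp5 also missed the threshold (r = 0.48, adjusted permutation p = 0.0541). By rank, without HDM_CP 98 and PBS_SAL 105, only Spp1, Fabp5 and Plin2 kept an adjusted permutation p under 0.05. The rank test gave 0.0729 for Trem2, 0.0625 for Fabp4 and 0.0830 for Lgals3. The library numbers fall into 3 runs, 45 to 64, 66 to 81 and 96 to 105, whose meaning the labels do not give. Within these runs r was positive in all 3 for Spp1 (0.84, 0.83 and 0.89), Trem2 (0.63, 0.64 and 0.84), Fabp4 (0.55, 0.88 and 0.96), Fabp5 (0.87, 0.79 and 0.76), Lgals3 (0.67, 0.79 and 0.77) and Plin2 (0.66, 0.92 and 0.76). For Apoe it was 0.30, -0.09 and 0.88, for Cd9 -0.49, 0.24 and -0.97, and for Cd36 0.33, 0.39 and -0.06. A run holds few libraries per group, so permutation within groups has few rearrangements and a high r there can have a large p. For Lgals3 in libraries 45 to 64, r of 0.67 had an unadjusted permutation p of 0.937. The smallest adjusted permutation p in any run was 0.0652, for Apoe in libraries 45 to 64. The r within runs thus give a direction only.

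**Figure D4:**
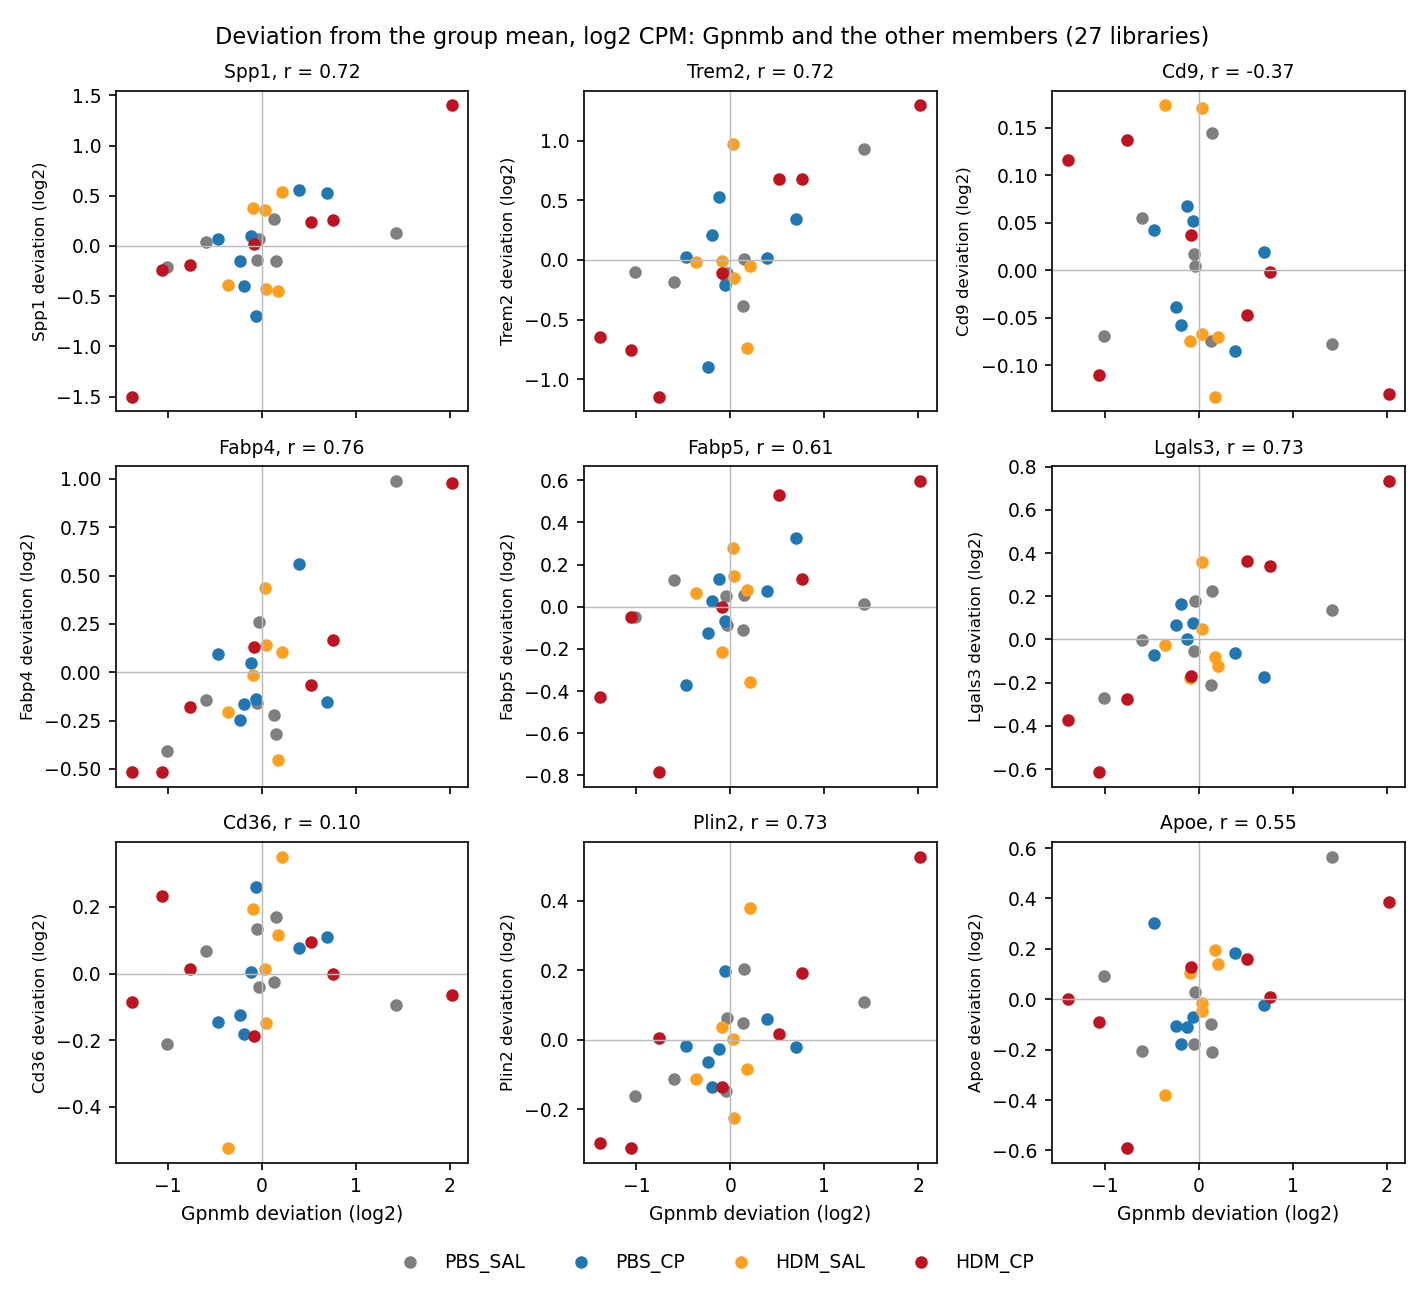
Deviation of Gpnmb from its group mean (horizontal, log2 CPM) against that of each other member (vertical, log2 CPM), 1 point per library and a colour per group, with Pearson's r above each panel. The HDM_CP points rise from lower left to upper right for Spp1, Trem2, Fabp4, Lgals3 and Plin2, and the Cd36 panel has no slope (r = 0.10).

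Tested within each group, relations with Gpnmb passed the threshold in HDM_CP. Within HDM_CP (n = 7), r with Gpnmb was 0.96 for Lgals3, 0.94 for Fabp4, 0.94 for Plin2, 0.93 for Trem2 and 0.91 for Spp1, each with an adjusted exact permutation p of 0.0214 over the 36 relations tested in the 4 groups. By rank, only Spp1 of these passed (rho = 1, adjusted exact permutation p = 0.0143). The adjusted exact permutation p by rank was 0.05 for Fabp4, 0.0607 for Lgals3 and for Plin2, and 0.122 for Trem2. Spp1 put the 7 HDM_CP libraries in the same order as Gpnmb, from HDM_CP 45 at the bottom to HDM_CP 98 at the top. Leaving out those 2 ends, r over the other 5 libraries was 0.995 for Spp1, 0.97 for Lgals3, 0.95 for Trem2, 0.81 for Fabp4 and 0.78 for Plin2. In PBS_SAL, PBS_CP and HDM_SAL, 0 of the 9 relations passed in each, and the median r was 0.54, 0.24 and 0.12. The difference in r between groups was not tested.

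Recruited macrophage markers moved with the same libraries. The summed level of the 13 recruited monocyte and macrophage markers ranged from 363 to 629 TPM in PBS_SAL, 393 to 452 TPM in PBS_CP, 470 to 864 TPM in HDM_SAL and 591 to 1293 TPM in HDM_CP. The highest HDM_CP libraries were again HDM_CP 98 (1293 TPM), HDM_CP 49 (1093 TPM) and HDM_CP 67 (1081 TPM), and PBS_SAL 105 was the highest of its group at 629 TPM. Of these 13 markers, 11 rose in HDM_CP against PBS_CP, where 5.6% of all genes were called higher and 2.27% lower. In HDM_SAL against PBS_SAL 6 rose, where 3.19% of all genes were called higher and 2.25% lower. Without HDM_CP 98 and PBS_SAL 105, 8 rose there, and 7.17% of all genes were called in either direction. The 12 alveolar macrophage markers summed to 704 to 1232 TPM in PBS_SAL, 743 to 1162 TPM in PBS_CP, 1859 to 3759 TPM in HDM_SAL and 2097 to 6223 TPM in HDM_CP. Of these 12, 4 rose and 2 fell in HDM_CP against PBS_CP, and 3 rose and 0 fell in HDM_SAL against PBS_SAL. Without HDM_CP 98 and PBS_SAL 105, 4 rose and 0 fell in each of these comparisons. Of all genes, 5.09% and 7.17% were then called in either direction. Chil3, a chitinase-like gene, dominates the alveolar macrophage sum. Without it the ranges were 497 to 688, 490 to 635, 533 to 767 and 596 to 946 TPM. Their part in the member results was not tested, and in RNA of whole lungs more cells of a type cannot be told apart from more RNA per cell.

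Markers of other cells that use these genes were measured beside them. The counts below are for HDM_CP against PBS_CP, where 5.6% of all genes were called higher and 2.27% lower. The 11 capillary endothelium markers, of cells that also use Cd36 and Fabp4, summed to 2096 to 4354 TPM in HDM_SAL and 3022 to 3603 TPM in HDM_CP, and 0 of 11 were called in HDM_CP against PBS_CP. The 8 adipocyte markers, of cells in which Fabp4 is prominent, summed to no more than 30.7 TPM in any library. That highest sum was in PBS_SAL 105, the library of its group with the most Gpnmb, Trem2, Fabp4 and Apoe, and the next PBS_SAL library had 18.7 TPM. Of the adipocyte markers Lep was under 0.1 TPM in all 27 libraries, while in PBS_SAL Adipoq reached 1.22 TPM, Plin1 1.27 TPM and Cfd 16.2 TPM. The 6 melanocyte markers, of cells in which Gpnmb is prominent, summed to no more than 5.03 TPM, with Tyrp1 and Tyr under 0.1 TPM throughout. Neutrophil markers summed to 161 to 662 TPM in HDM_CP against 138 to 292 TPM in PBS_CP, with 2 of 9 tested markers higher, and their highest library was HDM_CP 97. Of 6 tested eosinophil markers 3 rose in HDM_CP against PBS_CP, and their summed level was highest in HDM_CP 67, HDM_CP 98 and HDM_CP 49 (62.0, 31.2 and 19.3 TPM), with the defining gene Epx under 0.1 TPM in all libraries. Of 7 lipofibroblast and alveolar fibroblast markers 3 fell in HDM_CP against PBS_CP, and their sum was lowest in HDM_CP 98, HDM_CP 49 and HDM_CP 67 (2329, 2790 and 3640 TPM). The part of these cells in the member results was not tested.

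The genes whose deviations were most like those of Gpnmb, among 13512 whose log2 CPM averaged 1 or more, were Ctsd (r = 0.91), Acp5 (0.90), Pld3 (0.88), Lhfpl2 (0.87), Cd300c2 (0.85), Lrp12 (0.85), Psap (0.84), Gusb (0.83), Ctss (0.83) and Rnf149 (0.82). Ctsd and Ctss are lysosomal proteases, Acp5 is the tartrate-resistant acid phosphatase, Psap yields the saposins of lysosomal lipid breakdown and Gusb is the lysosomal glucuronidase, and Ctsd, Acp5, Psap and Ctss are also on the lysosome list described next. Without HDM_CP 98 and PBS_SAL 105, r for these 10 ran from 0.69 to 0.82. By the same measure Fabp4 stood 47th, Plin2 86th, Lgals3 89th, Trem2 92nd, Spp1 107th, Fabp5 328th and Apoe 517th.

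Other genes of the same pathways were taken from 4 lists, chosen with earlier results of these data known. Their counts stand beside the shares of all genes called. These were 5.6% higher and 2.27% lower in HDM_CP against PBS_CP, and 3.19% higher and 2.25% lower in HDM_SAL against PBS_SAL. Of 20 lysosome genes of the MITF and TFE factors, 14 rose and 0 fell in HDM_CP against PBS_CP, with a list median of 0.42. Hexa, a lysosomal glycosidase gene, rose by 0.54 ± 0.09 (adjusted p = 0.000261). Ctsb, a lysosomal protease, rose by 0.64 ± 0.10 (adjusted p = 0.0003) and Psap by 0.68 ± 0.12 (adjusted p = 0.000709). In HDM_CP against HDM_SAL 0 of 20 were called and the median was 0.29, with 0.47 ± 0.11 for Ctsb (adjusted p = 0.117) and 0.48 ± 0.12 for Ctsd (adjusted p = 0.152). In HDM_SAL against PBS_SAL only Sqstm1, an autophagy receptor, was called (-0.21 ± 0.06, adjusted p = 0.0251), with a median of 0.08, and in PBS_CP against PBS_SAL 0 were called (median -0.04), with Tfe3 and Mcoln1 at 0.07 ± 0.04 and -0.07 ± 0.05. The interaction was positive for 20 of 20 and called for 0 (median 0.35), with Grn at 0.32 ± 0.10 (adjusted p = 0.742) and Ctsd at 0.54 ± 0.17 (adjusted p = 0.742). Without HDM_CP 98 and PBS_SAL 105, 11 of the 20 rose in HDM_CP against PBS_CP, where 5.09% of all genes were called in either direction.

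Of 12 genes of TREM2 receptor signalling, 5 rose and 0 fell in HDM_CP against PBS_CP (median 0.25). Ms4a4a, a membrane protein associated with TREM2, rose by 1.28 ± 0.16 (adjusted p = 1.94e-05), Tyrobp, the adaptor, by 0.43 ± 0.12 (adjusted p = 0.0233), Vav1 by 0.42 ± 0.11 (adjusted p = 0.0183) and Card9 by 0.26 ± 0.06 (adjusted p = 0.00872). In HDM_SAL against PBS_SAL (median -0.02) Ms4a4a rose by 0.84 ± 0.16 (adjusted p = 0.00297) and Vav3 fell by 0.35 ± 0.10 (adjusted p = 0.0407), while Trem2 itself did not pass. Of the 12, 0 were called in HDM_CP against HDM_SAL (median 0.23), with Ms4a4a at 0.67 ± 0.16 (adjusted p = 0.148) and Tyrobp at 0.41 ± 0.12 (adjusted p = 0.222). In PBS_CP against PBS_SAL 0 were called (median -0.05), with Vav3 at -0.22 ± 0.10 and Inpp5d at -0.20 ± 0.09. For the interaction 0 were called (median 0.27), with Inpp5d at 0.41 ± 0.13 (adjusted p = 0.742) and Tyrobp at 0.46 ± 0.17 (adjusted p = 0.761). Without HDM_CP 98 and PBS_SAL 105, 4 of the 12 rose and 0 fell in HDM_CP against PBS_CP. There 5.09% of all genes were called in either direction.

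Of 25 genes of lipid uptake, storage and efflux, 4 rose and 0 fell in HDM_CP against PBS_CP (median 0.06), and 2 rose without HDM_CP 98 and PBS_SAL 105, where 5.09% of all genes were called in either direction. The scavenger receptors Msr1 and Olr1 rose by 1.30 ± 0.25 (adjusted p = 0.00166) and 0.82 ± 0.23 (adjusted p = 0.0293), Npc2, the lysosomal cholesterol carrier, by 0.47 ± 0.09 (adjusted p = 0.00173) and Lipa, the lysosomal lipase, by 0.34 ± 0.11 (adjusted p = 0.0429). In HDM_SAL against PBS_SAL 1 rose and 4 fell (median -0.01): Npc2 rose by 0.36 ± 0.10 (adjusted p = 0.0261), while Abca1, a cholesterol exporter, fell by 0.51 ± 0.12 (adjusted p = 0.0102), Dgat2, an enzyme of triglyceride synthesis, by 0.53 ± 0.13 (adjusted p = 0.0161) and Vldlr, a lipoprotein receptor, by 0.44 ± 0.12 (adjusted p = 0.0251). Of the 25, 0 were called in HDM_CP against HDM_SAL (median 0.13), with Msr1 at 1.07 ± 0.26 (adjusted p = 0.148) and Lipa at 0.43 ± 0.11 (adjusted p = 0.152). In PBS_CP against PBS_SAL 0 were called (median 0.0039), with Soat1, an enzyme of cholesterol ester synthesis, at 0.23 ± 0.08, and for the interaction 0 (median 0.11), with Lrp1 at 0.37 ± 0.12 and Abca1 at 0.46 ± 0.16.

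Of 10 other genes of lipid-associated and scar-associated macrophages, 7 rose and 0 fell in HDM_CP against PBS_CP (median 0.89), also without HDM_CP 98 and PBS_SAL 105. Clec7a, a receptor for fungal glucans, rose by 1.61 ± 0.26 (adjusted p = 0.000343), Igf1, a growth factor, by 1.45 ± 0.25 (adjusted p = 0.000605), Itgax, the integrin CD11c, by 1.24 ± 0.23 (adjusted p = 0.00152) and Lgmn, a lysosomal protease, by 0.55 ± 0.10 (adjusted p = 0.000633). Without HDM_CP 98 and PBS_SAL 105, 5.09% of all genes were called in HDM_CP against PBS_CP, in either direction. In HDM_SAL against PBS_SAL only Igf1 rose (1.01 ± 0.25, adjusted p = 0.0204, list median 0.38). In HDM_CP against HDM_SAL 0 of 10 were called and all 10 were positive (median 0.55), with Lgmn at 0.40 ± 0.10 (adjusted p = 0.148) and Clec7a at 0.94 ± 0.26 (adjusted p = 0.200). In PBS_CP against PBS_SAL 0 were called (median 0.04), with Dcstamp at 0.64 ± 0.54 and Igf1 at 0.26 ± 0.25, and for the interaction 0 (median 0.41), with Clec7a at 1.00 ± 0.36 and Lgmn at 0.38 ± 0.14.

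**Figure D5:**
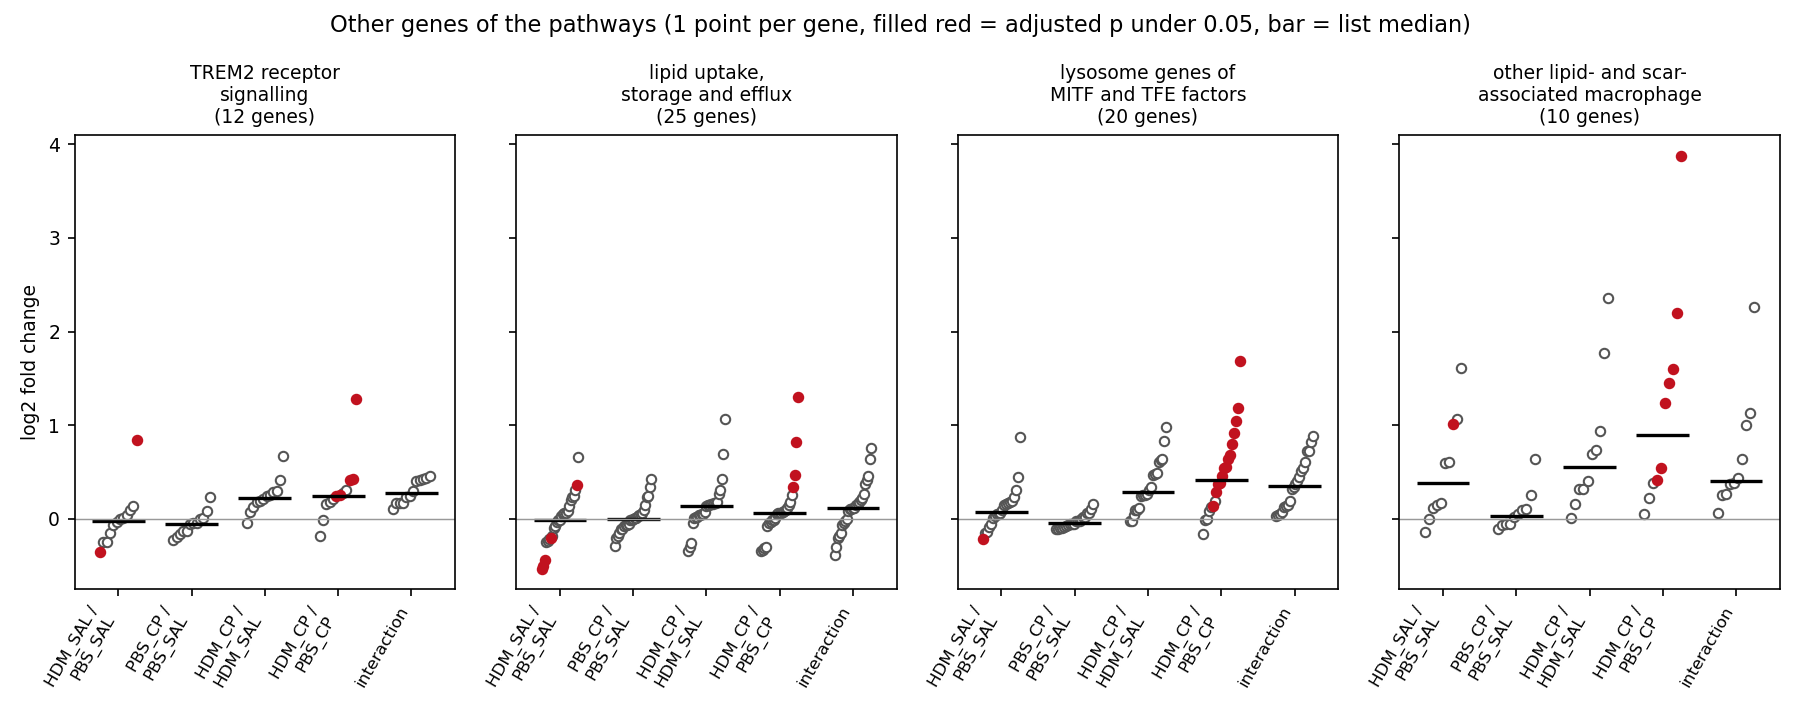
Log2 fold change of every gene of the 4 pathway lists in the 4 comparisons of groups and for the interaction; points are genes, filled red where the adjusted threshold was passed, and bars are list medians. Most red points lie above 0 in HDM_CP against PBS_CP, with 14 of 20 for the lysosome genes, and none in PBS_CP against PBS_SAL, HDM_CP against HDM_SAL or the interaction.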

How the data were processed

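Whole-lung polyA RNA was to be sequenced to 20M paired reads (150 bases each end), per the labels. Per the submitters' processing notes, STAR and StringTie 2 were used with GRCm39; the STAR version and strandedness are not stated in the labels or headers. The authors deposited estimated counts, all whole numbers, which sum to 56.3 M to 84.5 M per library, above the 20M planned pairs. How they were estimated is not stated in the labels. They may exceed 1 per read pair, and counting error would then be understated for weak genes. The authors also deposited TPM, which carry no depth.

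Estimated counts (rounded) were fitted in R 4.3.3 with edgeR 4.0.16: filterByExpr with a minimum count of 10, trimmed mean of M values scaling, 1 model of the 4 group means over 27 libraries, robust quasi-likelihood F tests, two-sided, Benjamini-Hochberg over 24629 genes. The SE of an edgeR change was derived as the absolute log2 fold change divided by the square root of its F statistic. CPM logs used a prior count of 2, and the TPM ratio a pseudocount of 0.1. Correlations used 100000 permutations within groups, or every rearrangement within 1 group. The alternatives used other scalings and filters, DESeq2 1.42.0, limma 3.58.1, runs of library numbers as a term, and each library left out. The fit was tested on simulated counts.

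Members and lists were chosen with earlier results of these data known. All members were named; of each list, in each comparison, up to 4 called genes with the smallest p, or the 2 smallest where none was called; and the 10 genes most like Gpnmb, leaving out predicted genes. Of the genes this rule names, 2 are not reported here.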

Additional observations from a re-analysis of the deposited data

Results flagged for a closer look

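In 40 combinations of a member and a group, 3 had a library at an end that stood apart from the others by Dixon's test, where chance gives about 1 in 20. Trem2 was at 9.46 CPM in PBS_SAL 105, against 5.002 CPM in the next library of that group. Apoe was at 739 CPM in the same library, against 532 CPM in the next. Fabp4 was at 8.54 CPM in PBS_CP 76, against 6.18 CPM in the next library.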

How the results depend on the processing

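No paired analysis was possible because no library number occurs in more than 1 group. Of 50 member changes, 39 kept their direction in every alternative run (41 each, 40 for the interaction), and the 4 calls of HDM_CP against PBS_CP never turned direction. Leaving out HDM_CP 98 and PBS_SAL 105 was chosen after seeing the data. The cause of the shifts below was not tested.

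For HDM_SAL against PBS_SAL, 0 members were called, against 2 in DESeq2, 1 in limma voom, 2 with only the groups compared, 1 without the 3 libraries of lowest total, 3 without HDM_CP 98 and PBS_SAL 105, and 0 to 2 with each library left out. For HDM_CP against HDM_SAL, DESeq2 called 2, and 0 to 2 were called with each library left out. For HDM_CP against PBS_CP, 4 became 2 with only the groups compared, 2 on log2(TPM + 1) with no filter, 3 without HDM_CP 98 and PBS_SAL 105, 5 in DESeq2 and with a minimum count of 50, and 4 to 6 with each library left out (6 without HDM_CP 45, HDM_CP 66 or HDM_CP 96). Of all genes, 1938 of 24629 were called in HDM_CP against PBS_CP, and 1685 of 22660 with only the groups compared. They were 1185 of 40749 on log2(TPM + 1) with no filter and 1243 of 24410 without HDM_CP 98 and PBS_SAL 105. DESeq2 called 2514 of 21765, and a minimum count of 50 gave 2143 of 18338. Without HDM_CP 45, HDM_CP 66 or HDM_CP 96 they numbered 2262, 2600 and 1986. For the ratio of Fabp5 to Fabp4, 0 to 1 differences passed with each library left out. All genes called in HDM_CP against HDM_SAL numbered 1 in edgeR, 185 in DESeq2 and 146, 14, 46 and 17 without HDM_CP 45, HDM_CP 66, HDM_CP 96 and HDM_SAL 99. In HDM_SAL against PBS_SAL they numbered 1339, and 602 without HDM_SAL 99. With only the groups compared they were 1055 of 22844, and without the 3 libraries of lowest total 1502 of 24796.

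Among changes between groups, direction turned only in ones that had not passed the test. In PBS_CP against PBS_SAL, without the 3 libraries of lowest total, Gpnmb was 0.11, Trem2 0.070 and Fabp4 0.21, and without HDM_CP 98 and PBS_SAL 105 they were 0.041, 0.089 and 0.080. With each library left out Gpnmb ran from -0.47 to 0.041, Trem2 from -0.22 to 0.089, Fabp4 from -0.26 to 0.080, Fabp5 from -0.076 to 0.039, Cd36 from -0.018 to 0.057 and the log2 ratio of Fabp5 to Fabp4 from -0.051 to 0.23. Fabp5 was 0.053 on the 3 TPM scales. Cd36 ran from -0.16 to 0.010 in HDM_SAL against PBS_SAL, from -0.13 to 0.029 in HDM_CP against HDM_SAL (0.047 on the TPM scales) and from -0.16 to 0.0010 in the interaction (0.0073 and 0.0074 on the TPM scales). In HDM_CP against PBS_CP, Spp1 ran from -0.12 to 0.38 and Cd9 from -0.041 to 0.0023, and without HDM_CP 98 and PBS_SAL 105 they were -0.12 and 0.0021. The Fabp4 interaction was -0.046 without those libraries and 0.18 to 0.52 with each library left out. Within runs of library numbers, r with Gpnmb turned for Cd9 (0.24), Cd36 (-0.064) and Apoe (-0.090).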
